A study of Mus musculus with 92 samples.

Results

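Glutathione transferases and the target genes of the transcription factor NRF2 were followed in the livers of HET3 mice, a genetically heterogeneous stock bred from several inbred strains. The set was a list of 32 genes picked by gene name and not by a threshold on their values. It held 18 glutathione transferases, Gsta2, Gsta3, Gsta4, Gstk1, Gstm1, Gstm2, Gstm3, Gstm4, Gstm6, Gstm7, Gsto1, Gstp1, Gstt1, Gstt2, Gstt3, Gstz1, Mgst1 and Mgst3, and 14 other genes. These were Nqo1, Gclc, Gclm, Gsr, Gss, Hmox1, Txnrd1, Srxn1, Nfe2l2, Keap1, Gpx1, Gpx4, Abcc3 and Abcc4. Of the 32 genes, 29 had usable counts among 17275 gene lines in the female libraries, and all 29 passed the filter on low counts that left 12617 genes. Gstm6, Gpx1 and Gpx4 were read only from the authors' deposited table of comparisons for each sex.

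Mice of both sexes were fed a Control diet, a Low Amino Acid diet with all amino acids reduced, or a Low Isoleucine diet with that 1 essential amino acid reduced. The labels give killing at 6 months with the diet begun at 9 weeks of age, or at 24 months with the diet begun at 6 months of age. The series' design text instead states 13 weeks on diet, so the time on diet is uncertain, and age cannot be told apart from starting age and time on diet. All animals were fasted overnight for 16 hours before the liver was taken. Female groups used here held 8 Control, 8 Low Amino Acid and 7 Low Isoleucine libraries at 6 months, and 8, 7 and 8 at 24 months. The title of each library ends in a code of a number and a letter. Of the 46 libraries, 19 share their number with 1 or 2 others of the same group, and 35 numbers occur in all. What the number marks is not stated, so libraries that share it may not be independent.

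NRF2, the product of Nfe2l2, is held in the cytoplasm and marked for degradation by KEAP1. Oxidants and electrophiles modify KEAP1, after which NRF2 enters the nucleus, pairs with small MAF proteins and binds antioxidant response elements. Its classical targets make glutathione, reduce quinones and oxidized thioredoxin, and break down heme. Glutathione transferases join glutathione to electrophilic compounds in the hepatocyte, and transporters of the ABCC family carry the conjugates out of the cell. Several transferases also respond to the receptors CAR and PXR and to the sex-dependent rhythm of growth hormone.

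The 46 female libraries used had totals of 7.82e+06 to 2.76e+07 estimated counts, with a median of 2.24e+07. The lowest total was that of replicate 5 of the 24-month Low Isoleucine group, which also had the lowest hepatocyte marker sum given below. The tissue label was checked with 10 hepatocyte markers. The 6 of them with counts together took 64954 to 203326 CPM (counts scaled to a common library size of 1e+06) in each library, and none was at 0 in any group. The 24-month females stood apart in several ways that touch the results. The median rank correlation with their own group lay between 0.951 and 0.967 for 12 libraries: every one of the 8 aged controls, and among aged restricted animals replicates 2 and 4 on Low Amino Acid with replicates 2 and 5 on Low Isoleucine. Acute phase genes, which the liver induces during inflammation, summed to 26128 to 215029 CPM in aged controls and 21092 to 32851 CPM in young ones. Of these genes, 17 of 19 rose with age on the Control diet and 12 of 19 were lower on Low Isoleucine than on Control at 24 months. Markers of neutrophils (9 of 9), lymphocytes (9 of 10), and Kupffer cells and macrophages (9 of 11) also rose with age on the Control diet. On Low Amino Acid, 8 of 19 acute phase genes and 6 of 9 neutrophil markers rose with age, with 0 lymphocyte and 0 macrophage markers. On Low Isoleucine, 9 of 10 lymphocyte and 2 of 11 macrophage markers rose, with 0 acute phase genes and 0 neutrophil markers. In whole liver, fewer cells of a type and less RNA per cell cannot be told apart. A further library labelled as 6-month Low Isoleucine, replicate 3, held 50.8 CPM of the Y-linked gene Kdm5d against at most 0.639 CPM in the other 46 female libraries, and was left out. In it Gstp1 stood at 720 CPM, where the 7 other libraries of the group held 99.4 to 173 CPM, and 11 of the 29 genes lay outside the range of those 7.

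Age was the comparison with the most differences in these genes. On the Control diet, 12 of 29 genes (41.4%) passed the test between 24 and 6 months, against 28.0% of all 12617 genes tested (edgeR quasi-likelihood test, adjusted p under 0.05 over all genes). Of the 12, 5 were higher in aged females, namely Hmox1, Gstm3, Abcc4, Gstm2 and Gstp1. The other 7, Gstt3, Abcc3, Gstt2, Gsta3, Gsto1, Mgst1 and Gstz1, were lower. The median log2 fold change over the 29 genes was -0.0021, beside 0.033 over all genes, so the set moved in both directions.

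**Figure D1:**
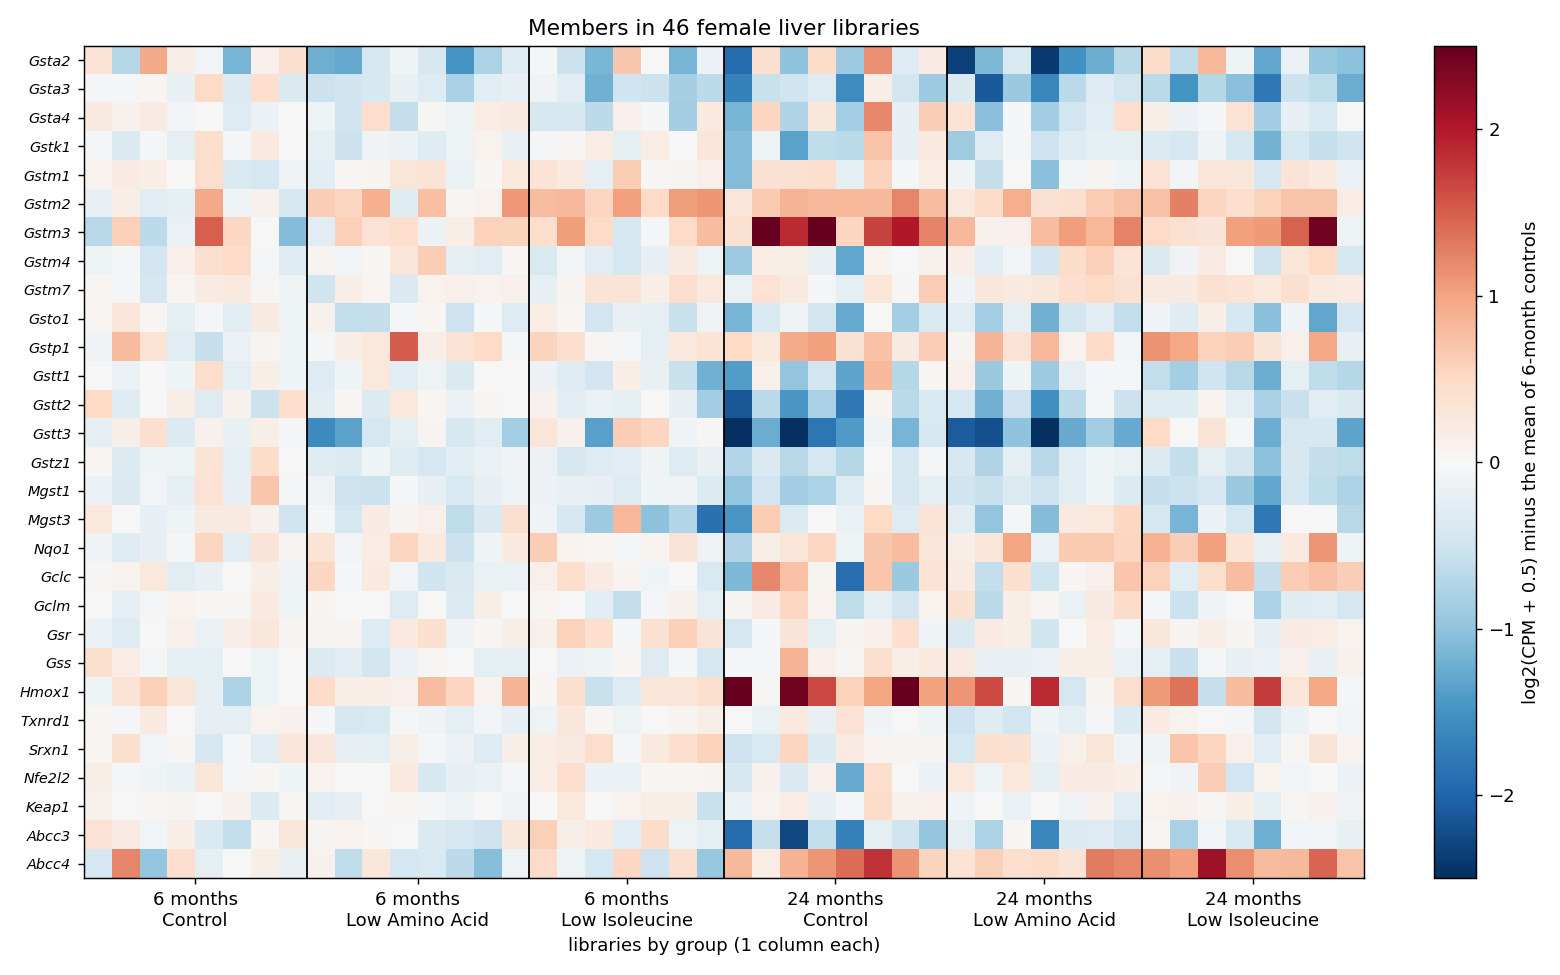
Each column is a female library and each row a gene; color gives log2(CPM + 0.5) minus the mean of the 6-month controls. Hmox1 and Gstm3 are darkest red and Gstt3 and Abcc3 darkest blue among the 8 aged controls, while the rows of Gsr, Keap1 and Txnrd1 stay pale in all 6 groups.

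Hmox1, the inducible heme oxygenase that opens the heme ring, showed the largest rise. Its level in young controls ran from 8.31 to 22.1 CPM with a median of 13.9, and in aged controls from 14.7 to 131 CPM with a median of 38.1. Every aged control lay above the young median, and 6 of 8 lay above all young controls. The fitted difference was 3.78-fold, or 1.92 ± 0.35 (SE) on the log2 scale (edgeR adjusted p = 0.000238). Hmox1 is also a gene of macrophages that take up red cells. In the 8 aged controls, the highest Hmox1 values, 131 and 104 CPM, were in replicates 7 and 1, where the summed Kupffer cell and macrophage markers were 2992 and 1846 CPM. Replicate 4 had marker sums as high as 1899 CPM with Hmox1 at 46.8 CPM, and replicate 3 had 79.2 CPM with markers at 762 CPM. The part of these cells in the Hmox1 difference was not tested. Without the 24-month libraries high in acute phase genes, which left 3 aged controls, the log2 difference was 0.996 (edgeR adjusted p = 0.0418). High meant a mean log2 CPM of the acute phase genes above that of every 6-month library.

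Gstm3 and Gstm2 encode cytosolic transferases of the mu class. Gstm3 had few counts, at 0.662 to 6.38 CPM (median 1.81) in young controls and 2.70 to 16.4 CPM (median 7.97) in aged ones. The groups overlapped, with 5 of 8 aged controls above every young one, and the log2 difference was 1.87 ± 0.39 (SE; edgeR adjusted p = 0.000657). Among young controls Gstm2 ran from 17.6 to 45.7 CPM (median 21), and among aged controls from 28.8 to 54.8 CPM (median 41.3). Replicate 5 alone kept the young group within the aged range, since the other 7 young controls lay below all aged ones. Its log2 difference was 0.75 ± 0.17 (edgeR adjusted p = 0.00140). The other mu-class genes with counts, Gstm1, Gstm4 and Gstm7, had log2 differences of 0.12, -0.18 and 0.16, none past the test. All 6 mu-class genes of the set lie side by side on the minus strand of chromosome 3, between positions 107926334 and 108044894 (GRCm38, GENCODE M21).

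Gstp1, the pi-class transferase, rose less. It measured 78.5 to 205 CPM (median 109) in young controls and 137 to 240 CPM (median 174) in aged ones, with 2 aged values above the young range. The difference was 0.56 ± 0.20 on the log2 scale (edgeR adjusted p = 0.0325). Gstp1 has near-identical neighbours, so reads could have been split among them when counts were estimated. Abcc4, an exporter of bile acids and conjugates at the sinusoidal membrane, held 3.62 to 18.1 CPM (median 7.0) in young controls. In aged controls it held 8.65 to 27.6 CPM (median 15.5), a log2 difference of 0.96 ± 0.27 (edgeR adjusted p = 0.00632). All aged controls exceeded the young median and 2 exceeded the whole young range.

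In the theta class 2 of 3 genes fell. Gstt3 went from 53.6 to 90.3 CPM (median 69.5) in young controls to 8.10 to 63.7 CPM (median 27.0) in aged ones, and 7 of 8 aged controls lay below every young control. The log2 difference was -1.22 ± 0.32 (edgeR adjusted p = 0.00411). Gstt2 stood at 73.2 to 152 CPM (median 111) in young controls and at 24.0 to 112 CPM (median 63.5) in aged ones, with 6 of 8 aged values under the young range. That difference was -0.87 ± 0.21 (edgeR adjusted p = 0.00209). Gstt1, the third theta gene, differed by -0.32 ± 0.21 and did not pass (edgeR adjusted p = 0.271). The 3 genes are neighbours on chromosome 10, from 75774115 to 75837424.

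Abcc3, which exports conjugated bile acids and glucuronides into blood, fell with them. Young controls held 396 to 782 CPM (median 654) and aged controls 124 to 516 CPM (median 354), and the values overlapped. The log2 difference was -0.97 ± 0.23 (edgeR adjusted p = 0.00154), and all 8 aged controls were below the young median. Abcc3 and Abcc4, both sinusoidal exporters, thus differed in opposite directions between the same groups.

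The remaining 4 decreases were in transferases of other classes. Gsta3, an alpha-class enzyme, measured 722 to 1306 CPM (median 908) in young controls and 287 to 1043 CPM (median 649) in aged ones, a log2 difference of -0.65 ± 0.22 (edgeR adjusted p = 0.0250). Mgst1, a microsomal transferase, went from 1401 to 2916 CPM (median 1680) to 910 to 1842 CPM (median 1328). Its log2 difference was -0.51 ± 0.13 (edgeR adjusted p = 0.00432). Gsto1, the omega-class enzyme, and Gstz1, which also isomerizes maleylacetoacetate in tyrosine breakdown, fell by 0.53 ± 0.18 and 0.42 ± 0.12 (edgeR adjusted p = 0.0202 and 0.00611). Gsto1 ran from 61.9 to 91.7 CPM (median 74.9) in young and 30.6 to 73.6 CPM (median 55.5) in aged controls. Gstz1 ran from 666 to 1156 CPM (median 809) and from 507 to 844 CPM (median 628). In all 4 genes the ranges overlapped, with 5 or 6 of the 8 aged controls below every young one.

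Of the set's genes with counts that are neither transferases nor transporters, only Hmox1 passed the test with age in females on the Control diet. The transporter genes Abcc3 and Abcc4, also listed as NRF2 target genes, passed in opposite directions. Nqo1, the quinone reductase often used as a readout of NRF2, ran from 5.36 to 10.1 CPM in young and 3.83 to 12 CPM in aged controls, a log2 difference of 0.29 ± 0.20 (edgeR adjusted p = 0.288). The subunits of the enzyme that starts glutathione synthesis, Gclc and Gclm, differed by 0.19 ± 0.26 and -0.01 ± 0.13. Gsr, Txnrd1 and Srxn1, which reduce glutathione disulfide, thioredoxin and sulfinylated peroxiredoxins, differed by 0.02 ± 0.11, 0.01 ± 0.09 and -0.02 ± 0.14. Nfe2l2 and Keap1 themselves differed by -0.12 ± 0.14 and 0.08 ± 0.09. For these 8 genes the edgeR adjusted p lay between 0.288 and 0.97. Their spread was not equal: Gclc ran from 231 to 330 CPM in young controls and from 73.0 to 637 CPM in aged ones, while Txnrd1 kept to 118 to 164 and 124 to 181 CPM.

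**Figure D2:**
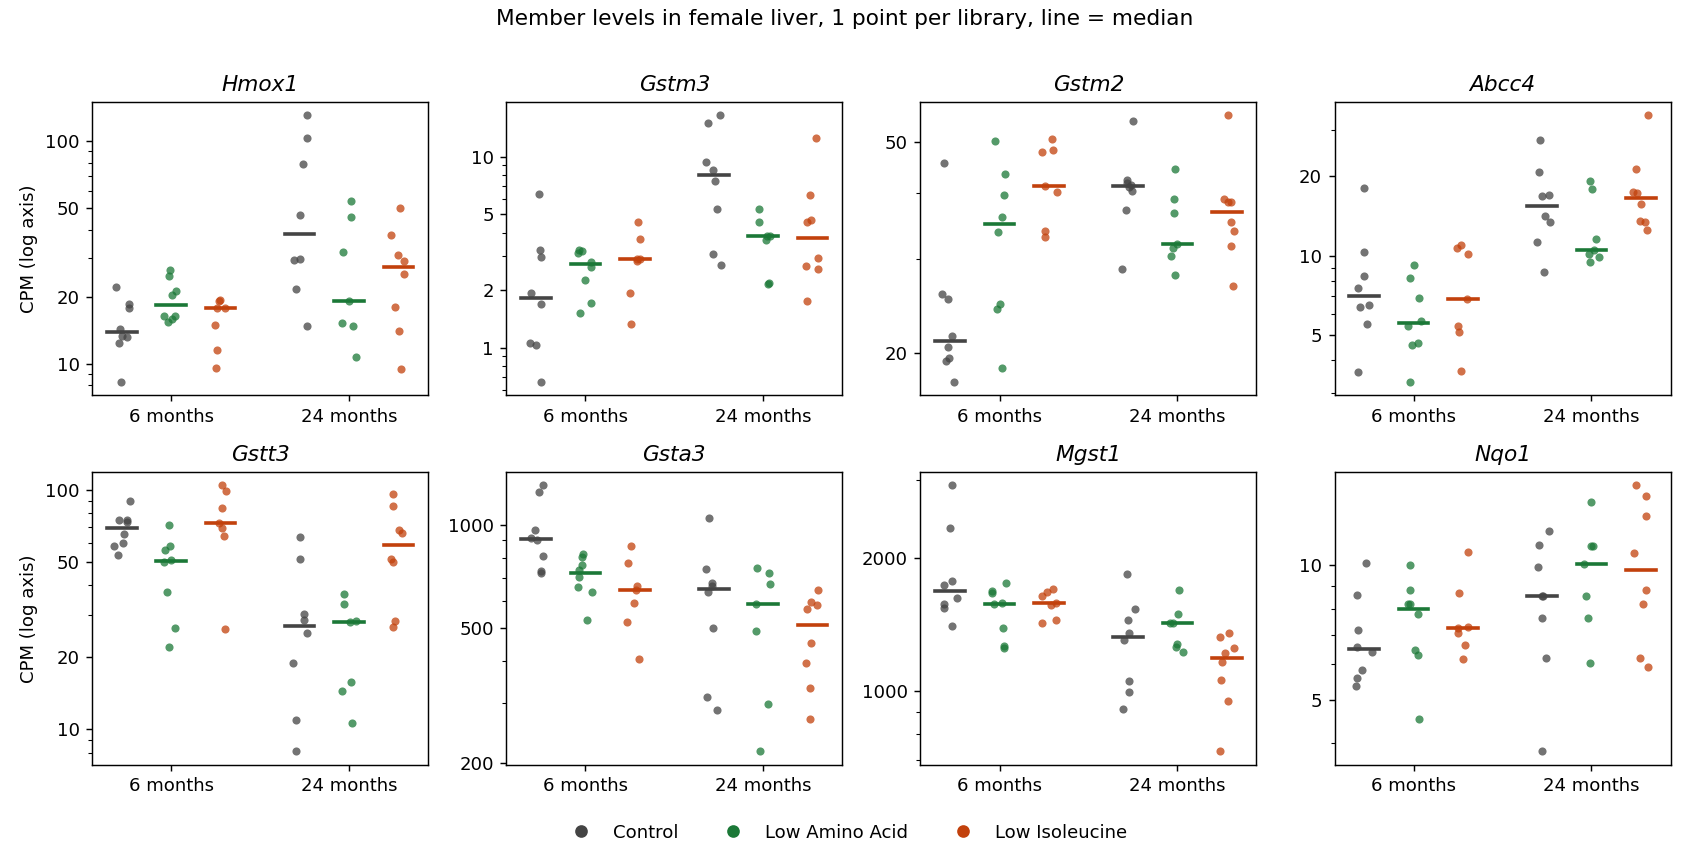
Each point is a female library, on a log axis of CPM, with a line at the group median; the 6 groups are ordered by age and diet. Aged controls spread widely for Hmox1 (14.7 to 131 CPM) and Gstt3 (8.10 to 63.7 CPM), Abcc4 is high at 24 months on all 3 diets, and the groups overlap for Nqo1.

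Leaving out the 24-month libraries high in acute phase genes, a setting added after seeing the data, changed this list. It removed aged control replicates 1, 3, 5, 7 and 8. Replicate 4, which stayed, had the highest neutrophil marker sum of the aged controls, at 669 CPM. With the 3 aged controls that remained, 4 of 29 genes passed the test, against 8.45% of all genes in that fit: Hmox1, Gstm3 at 2.48, and also Gclc at 0.72 and Gsta4 at 0.71 on the log2 scale (edgeR adjusted p = 0.0418, 0.00111, 0.0208 and 0.0321). The signs of Gclc and Gsta4 did not hold in other settings: with a correlation within code numbers they were at -0.15 and -0.07, not called. Without the libraries high in acute phase genes Gsta3 was at -0.24, Gstt2 at -0.47, Gsto1 at -0.29, and Abcc3 at -0.51, none past the test. Calls were also lost at values closer to the first ones, with Gstm2 at 0.71, Abcc4 at 1.09, Gstp1 at 0.65, Mgst1 at -0.42, Gstz1 at -0.28 and Gstt3 at -0.90. Removing any 1 library left 10 to 14 genes called. The calls lost were Gsta3 without aged control replicate 1 or 5 or young control replicate 5 or 7, and Gsto1 without aged control replicate 1 or 5. That of Gstp1 was lost without any of 7 libraries (aged control replicate 3 or 4, or young control replicate 1, 4, 5, 6 or 8), at 0.48 in the lowest case. All 3 were also lost with voom and quality weights, where 9 of 29 genes and 20.3% of all genes were called. When libraries that share a code number were allowed to correlate, 12 of the 29 genes were called, against 21.4% of all genes.

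On the restricted diets the age difference was called for fewer of these genes. On Low Amino Acid 1 of 29 genes (3.4%) passed, against 1.61% of all genes, and on Low Isoleucine 2 of 29 (6.9%) against 7.34%. Abcc4 was the gene they shared. On Low Amino Acid it held 3.31 to 9.18 CPM (median 5.52) at 6 months and 9.45 to 19.2 CPM (median 10.5) at 24 months, and on Low Isoleucine 3.65 to 11 (median 6.83) and 12.6 to 34.2 CPM (median 16.5). Within each diet no aged library overlapped a young one. The log2 differences were 1.08 ± 0.28 and 1.27 ± 0.28 (edgeR adjusted p = 0.0272 and 0.00478), beside 0.96 ± 0.27 on Control. On Low Amino Acid the Abcc4 call was lost when any of 8 libraries was left out (replicate 4, 6 or 7 at 24 months, or 2, 4, 5, 6 or 7 at 6 months), with differences from 0.95 to 1.12. It was also lost without the 24-month libraries high in acute phase genes (0.99), without those high in neutrophil genes, and with a correlation between libraries that share a code number (1.10, adjusted p = 0.0607 in limma). Of the 10 settings other than single omissions, 7 kept the call.

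Mgst1 was the other gene called on Low Isoleucine. Its 6-month libraries held 1426 to 1701 CPM (median 1584) and its 24-month libraries 731 to 1351 CPM (median 1191), with no overlap. The lowest value was in replicate 5 at 24 months, the library with the fewest counts. The difference was -0.48 ± 0.14 (edgeR adjusted p = 0.0282), and leaving out replicate 5 at 24 months or replicate 1 or 6 at 6 months ended the call at -0.41 to -0.47, as did the correlation within code numbers (-0.53, adjusted p = 0.0640 in limma). The authors' deposited table does not list Mgst1 as lower in this comparison. Hmox1 and Gstm3, the largest rises on Control, were on Low Amino Acid at 0.48 ± 0.35 and 0.51 ± 0.39. Their values with Low Isoleucine were 0.76 ± 0.36 and 0.73 ± 0.39, and neither gene passed on either diet. Gstm2 differed by 0.03 ± 0.18 and -0.17 ± 0.18. Whether the age difference varied with diet was tested as the change of each diet effect between the ages, reported further on.

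**Figure D3:**
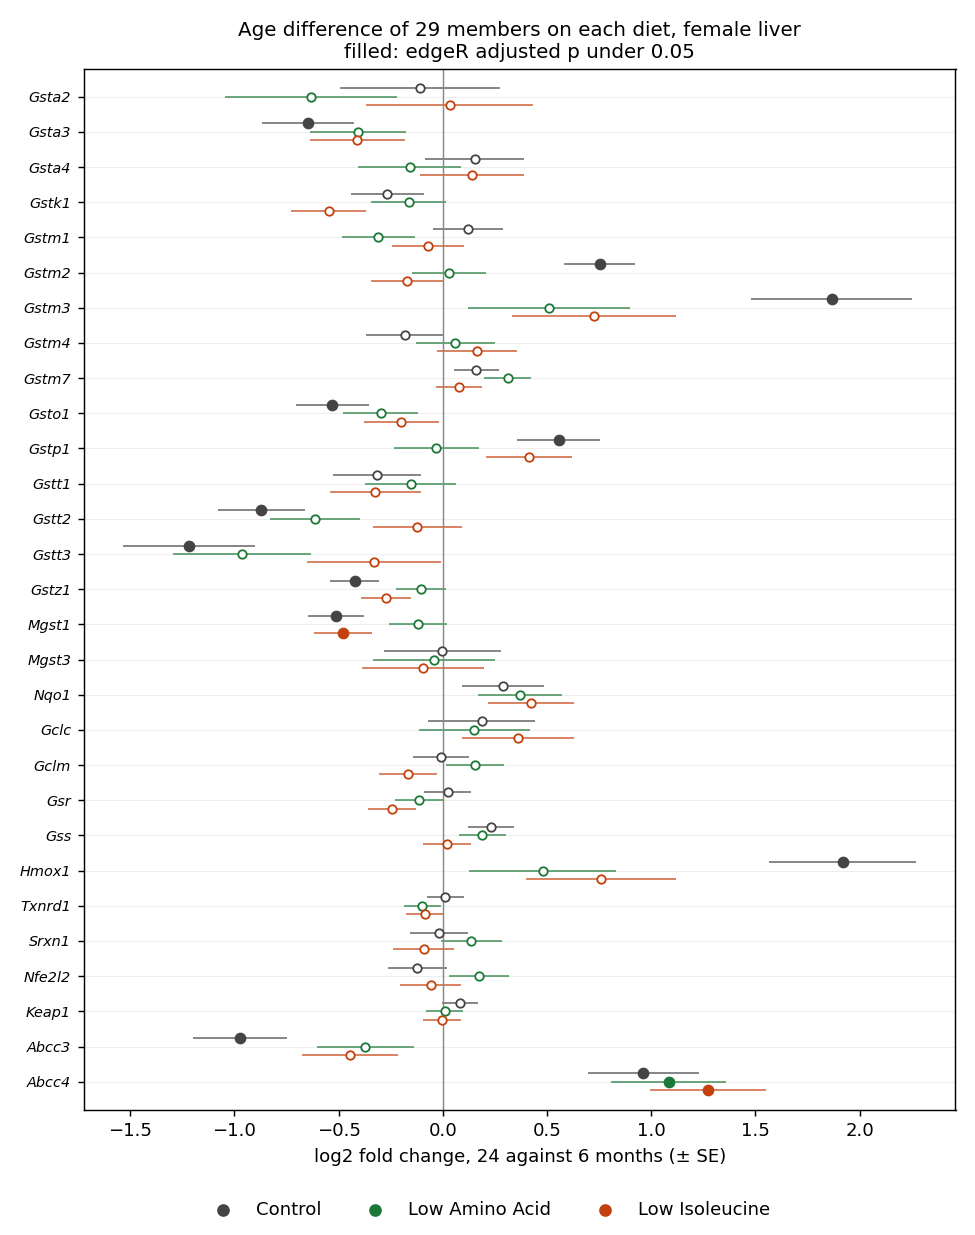
The horizontal axis is the log2 fold change of 24 against 6 months with its SE, for 29 genes and 3 diets; filled points passed the edgeR test. Hmox1 and Gstm3 stand near 1.9 on Control and between 0.48 and 0.76 on the restricted diets, whereas the 3 points of Abcc4 lie together between 0.96 and 1.27.

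Low Isoleucine against Control at 24 months gave 3 called genes of 29 (10.3%), against 6.48% of all genes. Hmox1 ran from 9.48 to 49.9 CPM (median 27.1) on Low Isoleucine beside 14.7 to 131 CPM on Control, and fell by 1.09 ± 0.34 on the log2 scale (edgeR adjusted p = 0.0436). The groups overlapped, with 7 of 8 restricted animals below the control median. Gstt3 ran from 26.9 to 96.4 CPM (median 59.0) beside 8.10 to 63.7 CPM, a difference of 0.998 ± 0.32 (edgeR adjusted p = 0.0455), and 7 of 8 lay above the control median. Gss, the enzyme that completes glutathione, ran from 43.2 to 69.7 CPM (median 56.9) beside 61.2 to 114.5 CPM (median 70.1), a difference of -0.36 ± 0.11 (edgeR adjusted p = 0.0341). All 8 restricted animals were below the control median for Gss. In the same comparison 3 of 9 neutrophil markers and 0 of 11 Kupffer cell and macrophage markers passed the test as lower, with median log2 differences of -3.05 and -0.78. The macrophage markers summed to 160 to 1649 CPM on Low Isoleucine and 338 to 2992 CPM on Control, and their part in the Hmox1 difference was not tested. Abcc3, at 0.65 ± 0.22, and Gstt2, at 0.50 ± 0.21, did not pass (edgeR adjusted p = 0.0698 and 0.134). The authors' deposited table lists both as higher, at 0.94 and 0.68 (adjusted p = 0.00937 and 0.0431).

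None of these 3 calls held in all settings. Of the 9 settings run other than single omissions, Gss and Gstt3 were called in 5 each and Hmox1 in 2. With only the 2 groups compared in the fit, the adjusted p-values in edgeR were 0.184 for Gss, 0.218 for Gstt3 and 0.241 for Hmox1. Without the 24-month libraries high in acute phase genes the log2 differences were -0.30, 0.76 and -0.37, none past the test, and Gstt1, at -0.85, passed instead. Among single libraries, leaving out aged control replicate 7, the library highest in Hmox1 and in macrophage markers, gave -0.80 for Hmox1. Leaving out aged control replicate 3, the highest in Gss at 114.5 CPM, gave -0.26 for Gss. With a correlation within code numbers Gss, at -0.34, and Hmox1, at -0.94, did not pass (adjusted p = 0.0562 and 0.103 in limma). In all, 14 of the 46 single omissions ended the Gstt3 call, 9 that of Hmox1 and 6 that of Gss, each time with the same sign.

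Low Amino Acid against Control at 24 months called 0 of 29 genes, against 0.745% of all genes, with 7 genes at an unadjusted p under 0.05. Gsta2, an alpha-class transferase with few counts, ran from 0.788 to 4.69 CPM (median 2.37) beside 1.29 to 14.4 CPM (median 6.11) and differed by -1.41 ± 0.41 (edgeR adjusted p = 0.0803). Txnrd1 ran from 97.9 to 135 CPM (median 114) beside 124 to 181 CPM (median 136), a difference of -0.30 ± 0.09 (edgeR adjusted p = 0.0923). Gstm3 ran from 2.15 to 5.30 CPM beside 2.70 to 16.4 CPM, at -1.22 ± 0.39 (edgeR adjusted p = 0.110). With DESeq2 in place of edgeR 2 of 29 genes were called, against 2.39% of all genes. The authors' deposited table calls 3 of 32 genes in this comparison, 1 higher and 2 lower, with a smallest adjusted p of 0.027. The share of all its genes called was not computed, so this count cannot be set against the 0.745% of the edgeR fit. Averaged over both ages, 2 of 29 genes passed (6.9%), against 1.44% of all genes: Gsta2 at -1.15 ± 0.28 and Txnrd1 at -0.24 ± 0.06 (edgeR adjusted p = 0.0320 and 0.0411). At 6 months Gsta2 stood at 1.93 to 5.78 CPM (median 3.99) on Low Amino Acid and 2.52 to 12.7 CPM (median 6.91) on Control. The Txnrd1 call was lost in 17 and the Gsta2 call in 6 of the 46 single omissions, and both with a correlation within code numbers (adjusted p = 0.0624 and 0.0777 in limma). Of the 9 settings other than single omissions, Txnrd1 was called in 5 and Gsta2 in 8.

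Averaged over both ages, Low Isoleucine called 1 of 29 genes (3.4%), against 7.41% of all genes. This was Gss again, at -0.26 ± 0.08 (edgeR adjusted p = 0.0347). At 6 months Gss ran from 46.5 to 64.4 CPM (median 59.0) on Low Isoleucine and 53.7 to 84.6 CPM (median 62.9) on Control. Without aged control replicate 3 the average was -0.20 and did not pass, and 8 single omissions ended the call in all. It was also lost with a correlation within code numbers (adjusted p = 0.0513 in limma). Of the 9 settings other than single omissions, 6 kept the call.

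**Figure D4:**
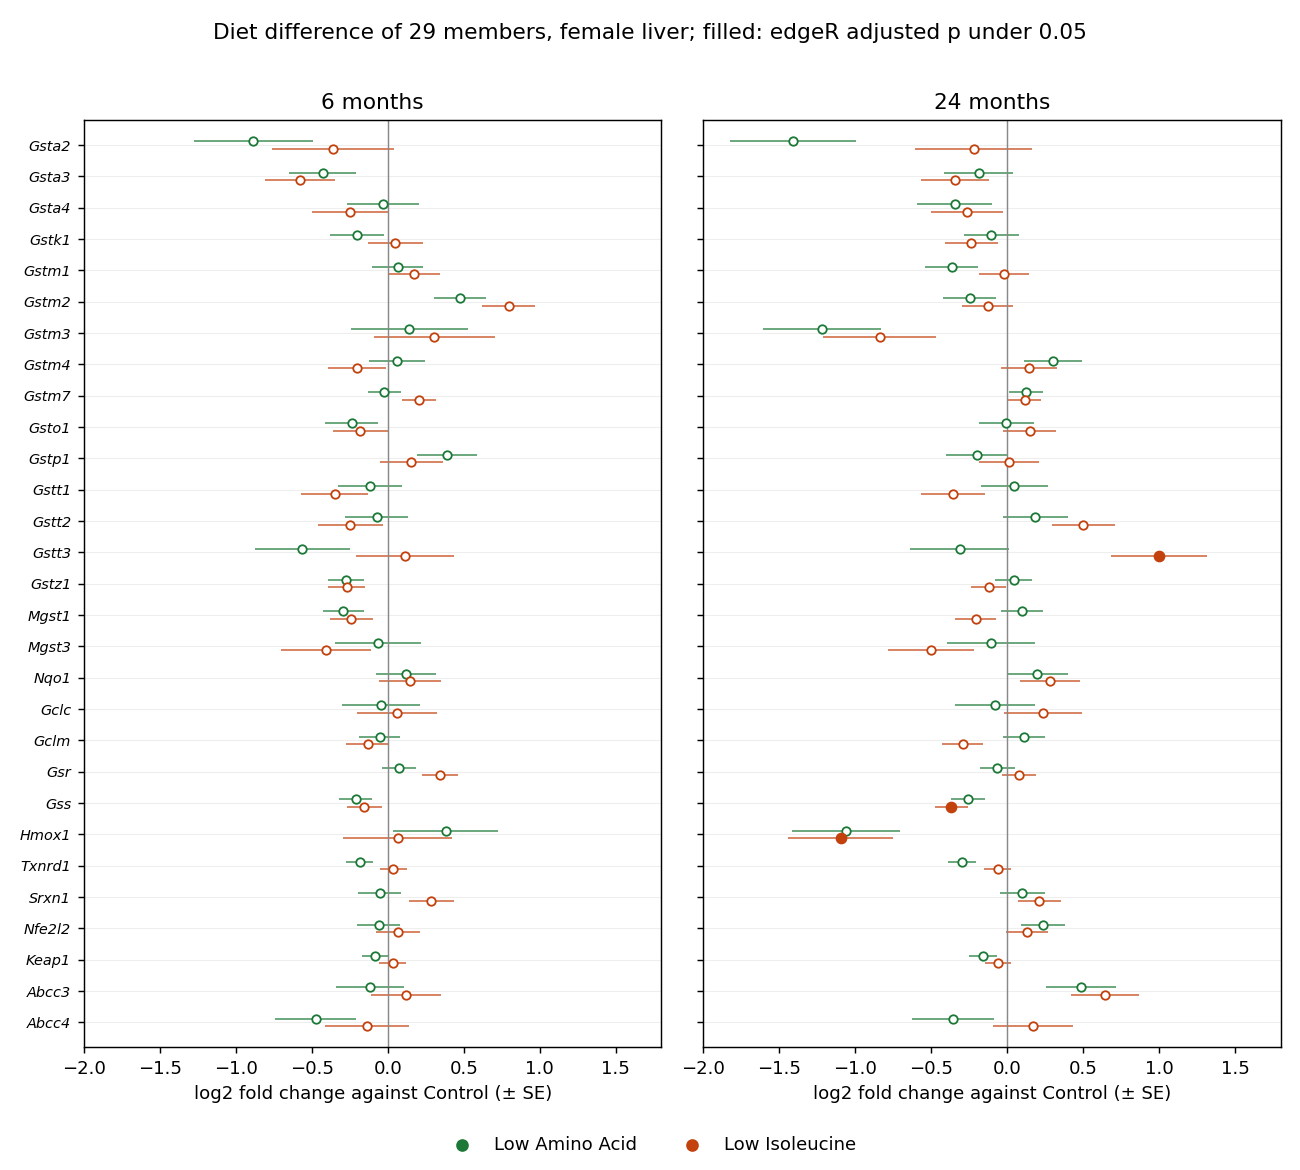
The horizontal axis is the log2 fold change against Control with its SE, for the 29 genes at 6 months (left) and 24 months (right); filled points passed the edgeR test. No point is filled at 6 months; at 24 months Gstt3 (0.998), Gss (-0.36) and Hmox1 (-1.09) are filled on Low Isoleucine.

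At 6 months neither restricted diet moved a gene of the set past the threshold. Low Amino Acid called 0 of 29 genes and 0.0% of all genes, and Low Isoleucine called 0 of 29 genes and 0.0238% of all genes. At an unadjusted p under 0.05 there were 5 and 4 of the 29 genes. The smallest p in both comparisons belonged to Gstm2, which ran from 17.6 to 45.7 CPM (median 21) on Control, 18.7 to 50.3 CPM (median 35.0) on Low Amino Acid and 33.0 to 50.6 CPM (median 41.3) on Low Isoleucine. The log2 differences were 0.48 ± 0.17 and 0.79 ± 0.18 (edgeR adjusted p = 0.470 and 0.0918). Control replicate 5 was the only young control inside the Low Isoleucine range, and without it the Low Isoleucine difference was 0.98 with an edgeR adjusted p of 0.00369. Of the 46 single omissions, 45 left Gstm2 uncalled on Low Isoleucine, with an edgeR adjusted p of up to 0.176. Of the 10 other settings, 4 called it. DESeq2 called 1 of the 29 genes here, against 0.301% of all genes, and the authors' deposited table also lists Gstm2 as higher on Low Isoleucine at 6 months, by 0.86 (adjusted p = 0.0436).

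Next in order of p on Low Isoleucine came Gsr and Gsta3. Gsr ran from 48.6 to 75.1 CPM (median 64.5) beside 39.2 to 60.1 CPM (median 50.7) on Control, at 0.34 ± 0.12 (edgeR adjusted p = 0.250). Gsta3 ran from 404 to 869 CPM (median 643) beside 722 to 1306 CPM, at -0.58 ± 0.23 (edgeR adjusted p = 0.360). On Low Amino Acid they were Gstz1, at -0.28 ± 0.12 with 626 to 795 CPM beside 666 to 1156 CPM, and Gsta2, at -0.88 ± 0.39 (edgeR adjusted p = 0.548 and 0.573).

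The 2 restricted diets were also set against each other. At 24 months 1 of 29 genes differed (3.4%), against 1.25% of all genes. Gstt3 was 2.48-fold higher on Low Isoleucine, at 26.9 to 96.4 CPM beside 10.6 to 36.9 CPM (median 28.1) on Low Amino Acid, a log2 difference of 1.31 ± 0.33 (edgeR adjusted p = 0.0378). Of the 8 Low Isoleucine animals, 6 lay above every Low Amino Acid animal. The call was lost in 9 single omissions, and with only these 2 groups in the fit (edgeR adjusted p = 0.0653). At 6 months 0 of 29 genes differed, against 0.0159% of all genes. The smallest p-values there belonged to Txnrd1, Gsr and Srxn1, at 0.22 ± 0.09, 0.27 ± 0.12 and 0.34 ± 0.15, with 5 genes at an unadjusted p under 0.05. Srxn1 ran from 37.0 to 56.9 CPM (median 45.5) on Low Isoleucine and 30.5 to 46.7 CPM (median 35.9) on Low Amino Acid.

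Whether a diet acted differently at the 2 ages was tested as the 24-month effect minus the 6-month effect. For both diets 0 of 29 genes passed in edgeR, against 0.0% of all genes, with 5 genes at an unadjusted p under 0.05 for Low Amino Acid and 4 for Low Isoleucine. Gstm2 had the smallest p in both, at -0.72 ± 0.25 and -0.92 ± 0.25 (edgeR adjusted p = 0.482 and 0.209). Hmox1 differed by -1.44 ± 0.49 and -1.16 ± 0.49 (adjusted p = 0.482 and 0.488 in edgeR). Gstm3 on Low Amino Acid was at -1.36 ± 0.55 and Gstt2 on Low Isoleucine at 0.75 ± 0.30. The same quantities measure how the age difference varied with diet, so the smaller age differences of Hmox1 and Gstm3 on the restricted diets were not separated from those on Control.

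Other genes of the pathway were counted from lists, to be read against the 28.0% of all genes called with age on Control and the 6.48% called on Low Isoleucine at 24 months. Of 13 glutathione transferases outside the set, 6 were tested, and 2 rose with age on Control: Ptges, a microsomal prostaglandin synthase of the family, at 2.55 ± 0.40, and Gstp3 at 0.75 ± 0.25 (edgeR adjusted p = 4.3e-05 and 0.0203). At 24 months 3 of the 6 were lower on Low Isoleucine than on Control, namely Gstm5 (-0.61 ± 0.14), Ptges (-1.49 ± 0.37) and Gstp3 (-0.96 ± 0.25). Among 24 tested of 30 further genes listed as NRF2 targets, 3 rose and 6 fell with age on Control, with a median of -0.0032 beside 0.033 over all genes. Whether NRF2 controls each listed gene in these livers, Trib3 among them, was not tested. Those that fell included Trib3 (-1.50 ± 0.28), the exporter Abcc2 (-0.59 ± 0.13) and the ferritin heavy chain gene Fth1 (-0.36 ± 0.09). On Low Isoleucine at 24 months 0 rose and 3 fell, namely Akr1a1 (-0.34 ± 0.08), Blvra (-0.39 ± 0.10) and Ptgr1 (-0.94 ± 0.29).

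Of 21 genes of glutathione supply and turnover, 5 rose and 6 fell with age on Control. Ggct, a cyclotransferase of glutathione breakdown, rose by 0.69 ± 0.16, and the dipeptidase gene Dpep1 was at -1.55 ± 0.39. At 24 months on Low Isoleucine 1 of the 21 rose and 3 fell. Cth, which makes cysteine from cystathionine, was at 0.86 ± 0.27, and Chac1, a glutathione-degrading enzyme, at -2.82 ± 0.60 (edgeR adjusted p = 0.0413 and 0.00321). Among 22 tested peroxidases, peroxiredoxins, thioredoxins and glutaredoxins, 1 rose and 6 fell with age on Control. Gpx3, a secreted peroxidase, was at 1.17 ± 0.33, and Glrx, Prdx3 and Prdx6 were at -0.87 ± 0.17, -0.51 ± 0.12 and -0.40 ± 0.13. Of 11 enzymes that make NADPH, 3 rose and 2 fell, with the pentose phosphate enzymes G6pdx and Pgd at 0.90 ± 0.23 and 0.73 ± 0.14. Of 18 partners and regulators of NRF2, 1 rose and 5 fell with age on Control, among them the small MAF gene Mafg at -0.55 ± 0.12. Of 19 CAR, PXR and AHR genes 2 rose and 7 fell, with the receptor genes Nr1i3 (CAR) and Nr1i2 (PXR) at -0.85 ± 0.24 and -0.44 ± 0.13. In pericentral hepatocyte genes, whose zone is rich in transferases, 0 of 15 rose and 8 fell, and Cyp2e1 was at -1.07 ± 0.17. Of 13 periportal hepatocyte genes 1 rose and 3 fell, with a median log2 difference of -0.22 beside -0.46 in the pericentral ones. The part of these changes in those of the transferases was not tested.

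For males, values come from the authors' deposited table, which carries no spread per group. At 6 months the authors' deposited table called 5 of 32 genes on Low Amino Acid, against 16.3% of all its genes, and 8 of 32 on Low Isoleucine, against 21.1%. Gstp1, which is known as an abundant transferase of male mouse liver, was lower on both diets in the authors' deposited table, at -1.17 and -1.62 (adjusted p = 0.00244 and 0.000176). The selenium-containing peroxidases Gpx1 and Gpx4 were also lower there: the authors' deposited table gives -0.70 and -0.57 on Low Amino Acid, and -0.84 and -0.70 on Low Isoleucine. Keap1 was at -0.48 and -0.53, and Nqo1 was higher at 0.98 and 0.86, all 4 past the threshold in the authors' deposited table. On Low Isoleucine the authors' deposited table also lists Gstt3 at 1.34, Gstm2 at 1.06 and Gstm7 at 0.49 as higher. At 24 months neither diet called a gene of the set in males in the authors' deposited table, against 0.0563% and 0.0676% of all its genes. The smallest adjusted p there was 0.204 (Gstm4, Low Amino Acid) and 0.219 (Gclc, Low Isoleucine), per the authors' deposited table.

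With age on the Control diet, the authors' deposited table called 9 of 32 genes in males, against 20.0% of all its genes. Higher in aged males in the authors' deposited table were Gstm2 (1.41), Nqo1 (1.37), Hmox1 (1.30), Gstt3 (1.27), Gstm1 (0.48) and Gstm7 (0.41). Lower were Gstt2 (-1.08), Abcc3 (-0.89) and Gpx1 (-0.50), again in the authors' deposited table. On Low Isoleucine 2 of 32 were called in the authors' deposited table, against 7.08% of all its genes: Gpx1 at 0.57 and Keap1 at 0.38. The 3 genes without counts, Gstm6, Gpx1 and Gpx4, lay between -0.27 and 0.05 in all 6 female comparisons of the authors' deposited table, none called.

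The difference between the sexes was computed from the fold changes and p-values of the authors' deposited tables. For age on Control 4 of 32 genes differed, against 9.15% of all 17023 genes. Gstt3 had the largest difference, at -1.48 in females and 1.27 in males, or 2.75 ± 0.43 (SE) between them (adjusted p = 4.2e-05 from the authors' deposited tables). Gstp1 was at 0.60 and -0.57, Gstz1 at -0.42 and 0.14, and Nqo1 at 0.27 and 1.37 in females and males of the authors' deposited tables, with adjusted p of 0.0177, 0.00496 and 0.0192. For Low Amino Acid at 6 months 3 of 32 differed, against 9.22%, and for Low Isoleucine 2 of 32, against 6.89%. Gstp1 and Keap1 differed on both diets: from the authors' deposited tables, males minus females was -1.53 ± 0.33 and -0.39 ± 0.13 on Low Amino Acid, and -1.81 ± 0.36 and -0.54 ± 0.14 on Low Isoleucine. The third gene on Low Amino Acid was Gstz1, at 0.43 ± 0.14 in the authors' deposited tables.

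**Figure D5:**
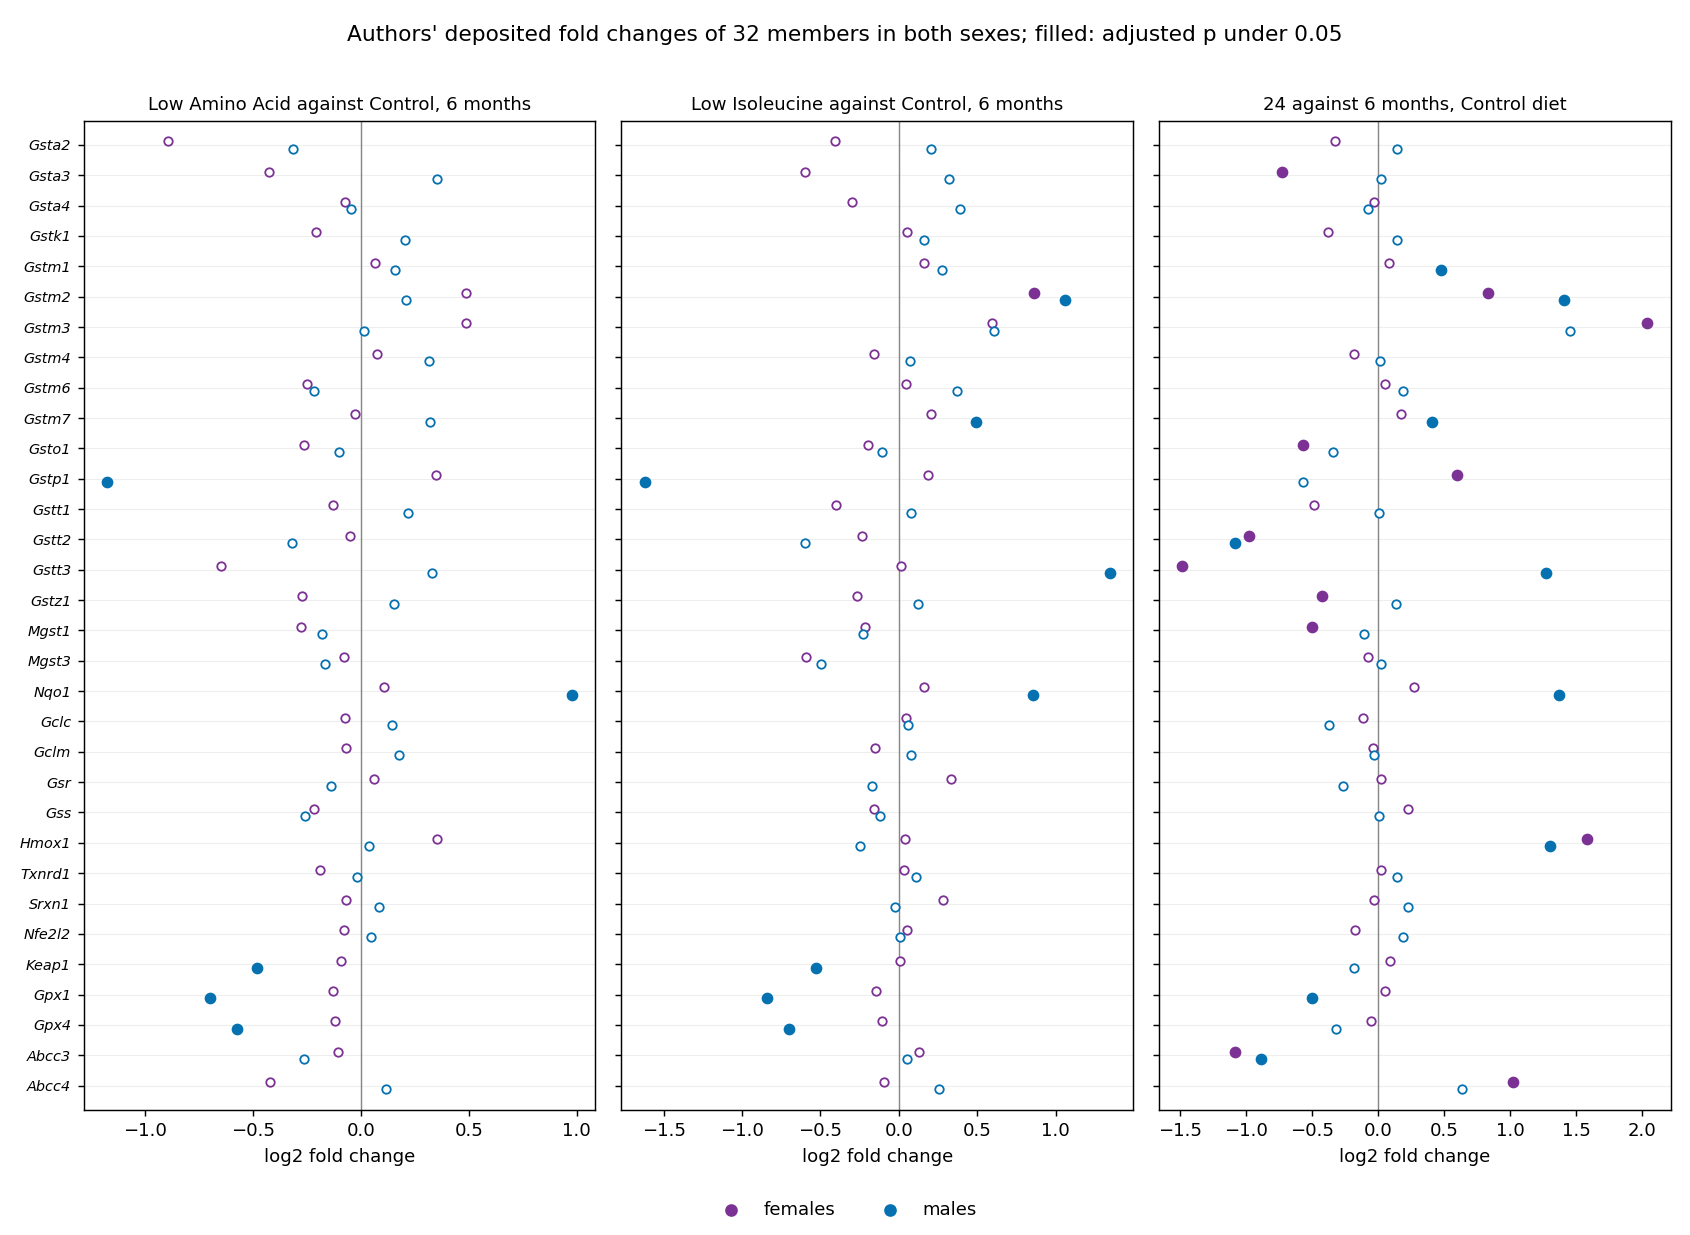
The horizontal axes give the authors' deposited log2 fold changes of the 32 genes for 3 comparisons, females and males as separate points; filled points have a deposited adjusted p under 0.05. Gstt3 lies at -1.48 in females and 1.27 in males for age on Control, and Gstp1 lies below -1 in males on both diets at 6 months.

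The antioxidant response element has a core that can be written TGACNNNGC. It was searched on both strands of RefSeq promoter windows (GRCm38.p6), each from 250 bases before to 50 bases after a gene's start. Windows were found for 26 of the 32 genes (none for Gsta4, Gstt2, Gclc, Gsr, Hmox1 and Abcc3). The core was in a window of 8 of the 26 genes (30.8%), against 14.0% of 27025 genes, and in 9 of 40 windows (22.5%), against 12.4% of all 32851 windows. No match overlapped TGACTCA or TGAGTCA, the AP-1 element that resembles it. The genes with a match were Gsta3, Gstm7, Mgst1, Gclm, Txnrd1, Srxn1, Nfe2l2 and Abcc4. Of these, Gsta3 and Mgst1 fell and Abcc4 rose with age on Control, whereas Gclm, Txnrd1, Srxn1, Nfe2l2 and Gstm7 did not pass the test. A match is a description of the letters in a window.

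The 250 bases before a RefSeq start are shown for 5 of them, 3 that changed with age on Control and 2 that did not. Each is given 5′ to 3′ on the gene's strand with the match in capitals. GC and GTCA at the ends of the capitals mark a match on the other strand. The stretches lie at chr1:21240335-21240584 (plus strand, Gsta3), chr6:138140277-138140526 (plus, Mgst1), chr14:118706220-118706469 (minus, Abcc4), chr3:122245307-122245556 (plus, Gclm) and chr10:82858956-82859205 (plus, Txnrd1). A gene can have more than 1 start. Those used for Mgst1 and Txnrd1 lie inside the annotated genes, which begin at 138140316 and 82833951.
Gsta3: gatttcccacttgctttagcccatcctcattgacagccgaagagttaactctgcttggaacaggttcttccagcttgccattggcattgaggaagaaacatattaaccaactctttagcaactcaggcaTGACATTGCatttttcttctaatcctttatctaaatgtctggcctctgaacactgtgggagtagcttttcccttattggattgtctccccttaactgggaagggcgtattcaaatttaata
Mgst1: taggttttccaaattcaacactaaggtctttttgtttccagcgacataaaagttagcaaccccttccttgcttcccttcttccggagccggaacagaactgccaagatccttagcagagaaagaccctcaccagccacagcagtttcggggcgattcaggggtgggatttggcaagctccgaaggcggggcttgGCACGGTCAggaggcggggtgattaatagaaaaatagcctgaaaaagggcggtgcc
Abcc4: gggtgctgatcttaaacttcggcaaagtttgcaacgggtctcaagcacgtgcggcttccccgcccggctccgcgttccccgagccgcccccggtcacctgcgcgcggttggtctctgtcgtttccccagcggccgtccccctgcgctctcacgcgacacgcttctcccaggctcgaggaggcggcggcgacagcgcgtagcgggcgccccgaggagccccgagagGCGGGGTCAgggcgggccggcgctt
Gclm: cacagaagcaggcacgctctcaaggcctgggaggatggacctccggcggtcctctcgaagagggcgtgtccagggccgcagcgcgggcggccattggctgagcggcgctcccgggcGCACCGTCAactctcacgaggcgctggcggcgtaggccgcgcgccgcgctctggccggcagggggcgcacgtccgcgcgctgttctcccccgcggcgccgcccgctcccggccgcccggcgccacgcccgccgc
Txnrd1: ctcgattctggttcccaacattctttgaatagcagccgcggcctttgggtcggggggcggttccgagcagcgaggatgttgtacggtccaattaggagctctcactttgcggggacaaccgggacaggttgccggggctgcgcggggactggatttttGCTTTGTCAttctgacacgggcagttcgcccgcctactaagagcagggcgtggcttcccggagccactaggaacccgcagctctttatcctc
The match begins 121 bases before the start in Gsta3, 56 in Mgst1, 25 in Abcc4, 134 in Gclm and 92 in Txnrd1. It is on the gene's own strand in Gsta3 and on the other strand in the rest.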

How the data were processed

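Liver RNA of HET3 mice was sequenced as stranded polyA libraries, per the labels' protocols. The deposited expression values of the females are estimated counts per gene, which need not be whole, and were rounded. The submitters' processing notes name edgeR, limma, R 3.4.3 and GRCm38.p5; for the aligner, "not given in the sources used here" applies. The authors' deposited table for each sex holds log2 fold changes, p-values, adjusted p-values and an F statistic, a score not used as a result; which libraries entered it is not given. Count columns of the males were not used, because gene names and values were out of step in them (median Alb 75 beside 1905880 in females).

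The 46 female libraries were fitted together with edgeR 4.0.16 (R 4.3.3): filterByExpr, TMM scaling, 1 mean per group, quasi-likelihood tests, and Benjamini-Hochberg adjustment over 12617 genes at 0.05. CPM are TMM-scaled, and an SE is the log2 fold change divided by the square root of F. Nothing says that libraries were independent, and 19 of 46 share the number in their title code with another of their group, so p-values measure the spread between these samples. Counting depth was 7.82e+06 to 2.76e+07 estimated counts. The script was tested on simulated data. Alternatives were DESeq2 1.42.0, voom (limma 3.58.1) with quality weights, no filter, the groups compared alone, and the left-out library put back. Further ones left out the 12 libraries that stood apart, or each library in turn. Added after seeing the data were fits without the 24-month libraries high in acute phase or in neutrophil genes, and voom with a correlation within code numbers (0.111). For the sexes, the SE of each log2 fold change was recovered from its deposited p-value, a test added after seeing the data. Members and lists were chosen with earlier results of these data known. Values by group are given for members called in a comparison or, where none was, the 3 with the smallest p; other lists name at most 4 called genes per comparison, those with the smallest adjusted p.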

Additional observations from a re-analysis of the deposited data

Results flagged for a closer look

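In 8 of 102 sets of 1 gene and 1 group, 1 library lay far from the rest by Dixon's test, which flags about 1 set in 20 by chance. In 6-month controls these were Gstm2 at 45.7 CPM (replicate 5, next 25.9), Gstm3 at 6.38 CPM (replicate 5, next 3.23) and Abcc4 at 18.1 CPM (replicate 2, next 10.4). In the 6-month Low Amino Acid group it was Gstp1 at 334.7 CPM (replicate 4, next 163.7). In aged controls Gss stood at 114.5 CPM (replicate 3, next 84.2). In the 24-month Low Isoleucine group they were Gstm2 at 56.2 CPM (replicate 2, next 39.1), Gstm3 at 12.6 CPM (replicate 7, next 6.33) and Abcc4 at 34.2 CPM (replicate 3, next 21.4). Replicate 5 of the young controls was thus high in both Gstm2 and Gstm3.

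Of all genes, 9.15% differed between the sexes for age on Control, 9.22% for Low Amino Acid and 6.89% for Low Isoleucine at 6 months. Among the 32 genes of the set, the sexes differed in 9 results computed from the authors' deposited tables, given as males minus females on the log2 scale. For age on Control they were Gstt3 (2.75), Nqo1 (1.10), Gstz1 (0.56) and Gstp1 (-1.17). For Low Amino Acid at 6 months they were Gstz1 (0.43), Keap1 (-0.39) and Gstp1 (-1.53), and for Low Isoleucine at 6 months Keap1 (-0.54) and Gstp1 (-1.81), all from the authors' deposited tables. The library left out as 6-month female Low Isoleucine, which held Y-linked reads, was also high in Gstp1, at 720 CPM.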

How the results depend on the processing

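The direction of no called member result changed. Of 3265 recomputed values of 59 member results, 22 of them called, 3066 kept direction and side of the threshold, 140 lost the call, 55 gained one and 4 changed sign. Those 4 were uncalled values for age on Control: Gclc at -0.149 and Gsta4 at -0.0744 with a correlation within code numbers, and single omissions, over which Gclc ran from -0.0409 to 0.3379 and Gsta4 from -0.0836 to 0.2729. Counts of members called that moved by over 1.5 times follow, with the share of all genes called in the same fit. With DESeq2, Low Isoleucine at 6 months had 1 (0.301%), Low Amino Acid at 24 months 2 (2.39%), and Low Isoleucine over both ages 2 (9.27%). With voom and quality weights, Low Isoleucine at 6 months had 2 (0.571%), the diets against each other at 24 months 2 (6.59%), age on Low Amino Acid 2 (3.7%), and Low Isoleucine over both ages 4 (8.56%). With no filter, Low Isoleucine at 24 months had 1 (4.08%) and Low Amino Acid over both ages 1 (0.673%). With only the groups compared, Low Isoleucine at 24 months had 0 (0.33%), the diets against each other 0 (0.617%), Low Isoleucine over both ages 0 (4.13%) and Low Amino Acid over both ages 1 (0.854%). Without the 12 libraries that stood apart, Low Isoleucine at 6 months had 2 (1.06%), the diets against each other 3 (3.79%), and age on Low Isoleucine 4 (4.65%). Comparisons with aged controls could not be run there, since all 8 were among the 12. The next 3 settings were added after seeing the data. Without the libraries high in acute phase genes, age on Control had 4 (8.45%), age on Low Amino Acid 0 (0.438%), Low Isoleucine 1 at 6 months (0.352%), 1 at 24 months (2.03%) and 5 over both ages (6.6%), the diets against each other 3 (1.51%), and Low Amino Acid over both ages 1 (0.156%). Without those high in neutrophil genes, Low Amino Acid at 24 months had 2 (3.81%), Low Isoleucine 1 at 24 months (4.06%) and 2 over both ages (6.04%), the diets against each other 0 (1.59%), and age on Low Amino Acid 0 (0.222%). With a correlation within code numbers, Low Isoleucine had 1 at 24 months (5.04%) and 0 over both ages (4.74%), Low Amino Acid 0 over both ages (1.1%), age on Low Isoleucine 1 (0.642%), and age on Low Amino Acid 0 (0.769%). Age on Control moved less in the other settings, between 9 and 12 members. Leaving out 1 library at a time gave 0 to 1 for Low Isoleucine at 6 months, 0 to 1 for Low Amino Acid and 0 to 4 for Low Isoleucine at 24 months, 0 to 1 between the diets, 10 to 14 for age on Control, 0 to 1 on Low Amino Acid, 1 to 3 on Low Isoleucine, and 0 to 2 for each diet over both ages. It gave 0 to 0 for Low Amino Acid at 6 months, the diets against each other at 6 months and both changes of diet effect with age. No paired analysis was possible because the labels give codes and no replicate numbers shared between groups. Genes of a few CPM, such as Gstm3 and Gsta2, are limited most by depth.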
